A study of Mus musculus with 5 samples.

Results

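Among 12375 named loci of an expression table of mouse embryonic gut tissues, 83 encode collagens, laminins, nidogens, fibronectin, fibrillins, integrins, genes named after integrin subunits, or ADAMTS proteases. They were chosen by gene name alone, without Col2a1 and without loci that carry several joined names, and no expression value entered the choice. Poly(A) RNA of C57BL/6J embryos was sequenced from 2 tissues of embryonic day 8.5 (E8.5), foregut and medial foregut, and 3 of E10.5, liver and the ventral and dorsal pancreas, with 1 library per tissue and no treatment or mutation named in the labels. The sources used here do not say how the tissue was dissected, how many embryos were pooled or what separates medial foregut from foregut. With 1 library per group there is no replicate error, so no test was run and every difference below describes these 5 libraries only.

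Epithelial buds such as those of liver and pancreas rest on a basement membrane, a sheet built from a laminin network and a collagen IV network that nidogens and the proteoglycan perlecan tie together. Around it lies interstitial matrix made by mesenchyme, with fibrillar collagens I, III and V, fibronectin and fibrillin microfibrils. Integrins are alpha-beta heterodimers that bind these proteins on the cell surface: alpha 3, alpha 6 and alpha 7 are laminin receptors, alpha 5 and alpha v recognise the RGD motif of fibronectin and other ligands, and beta 1 pairs with most alpha chains. ADAMTS enzymes are secreted metalloproteases that process procollagens or cut proteoglycans such as versican.

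Values are FPKM, fragments counted per transcript and scaled by transcript length and by the number of mapped fragments, and so allow levels of different genes to be set side by side. Differences were taken between log2(FPKM + 1) values; adding 1 FPKM makes those of weakly expressed genes smaller than the true ratio. To be counted higher or lower, a gene had to differ by at least 2, that is 4 times in FPKM + 1, with at least 5 FPKM in the higher library. Where 2 libraries were the reference, both had to meet the rule. A looser count used a difference of at least 1. Of the 83 members, 79 reached 1 FPKM in some library, 55 reached 5 FPKM in some library and 23 reached 5 FPKM in all 5. Under the stricter rule 19 members were counted in at least 1 of 6 comparisons and 64 in none, where 8.02% of all named loci were counted in at least 1. The 13 members whose locus covers under 30% of the annotated gene span may not represent the whole gene: Adamts5, Col1a2, Col5a1, Col5a2, Col6a3, Col8a1, Col13a1, Col17a1, Col22a1, Itgae, Itgbl1, Lama2 and Lama3. They are called partial loci.

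The libraries carried markers of several cell types. Summed over 8 hepatoblast genes found, liver had 5969 FPKM, ventral pancreas 610 and dorsal pancreas 70.8. Over 7 pancreatic progenitor genes the same libraries had 15.4, 186 and 160 FPKM. The hepatoblast sum was thus highest in liver and the progenitor sum lowest there. In ventral pancreas, however, the hepatoblast sum exceeded the progenitor sum. Of the 8 hepatoblast genes, 6 were counted higher in ventral than in dorsal pancreas. The sum over 8 cardiomyocyte genes was 5162 FPKM in foregut and 8849 in medial foregut, 487 in liver, 25.1 in the ventral and 21.5 in the dorsal pancreas. Over 6 smooth muscle genes the sums were 761, 1265, 162, 8.79 and 24.2 FPKM in the same order. The 5 leukocyte genes found summed to 87.8 FPKM in liver and to between 1.58 and 6.56 elsewhere. The 9 endothelial genes summed to between 58.8 FPKM in ventral pancreas and 167 in medial foregut, and the 11 mesenchymal genes to between 132 in liver and 372 in dorsal pancreas. Of the other lists, 6 endocrine genes summed to between 2.40 FPKM in liver and 2256 in dorsal pancreas, 9 neural genes to between 3.21 in liver and 122 in foregut, 4 erythroid genes to between 4.04 in medial foregut and 117 in ventral pancreas, 7 mesothelium and septum genes to between 40.5 in dorsal pancreas and 112 in medial foregut, and 2 notochord genes to between 19.7 and 48.9. The 5 platelet genes listed are not analysed here. In such bulk tissue fewer cells of a type and less RNA per cell cannot be told apart.

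The 83 members summed to 1345 FPKM in liver, 1385 in dorsal pancreas, 1519 in foregut, 1714 in ventral pancreas and 1797 in medial foregut. These sums include the partial locus Itgbl1, which is not read as expression of that gene. Its group of 4 genes named after integrin subunits summed to between 211 FPKM in dorsal pancreas and 321 in medial foregut. Liver held the lowest value of 32 members, and ventral pancreas held the highest value of 23 and medial foregut of 21, as the map of all members by library shows. The same counts were not made over all named loci, so they are not read as a trait of the members. Over all named loci, liver also had the fewest at 1 FPKM, 10266 against 10633 to 11165 elsewhere. The foregut and medial foregut libraries were most alike, with a median absolute member difference of 0.25 and differences between -0.73 and 1.14 (medial foregut minus foregut). These are different samples of the same stage and not replicates. No member was counted higher or lower between them, where 0.0404% and 0.00808% of all named loci were, and at the looser rule again none, against 0.469% and 0.275%.

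**Figure D1:**
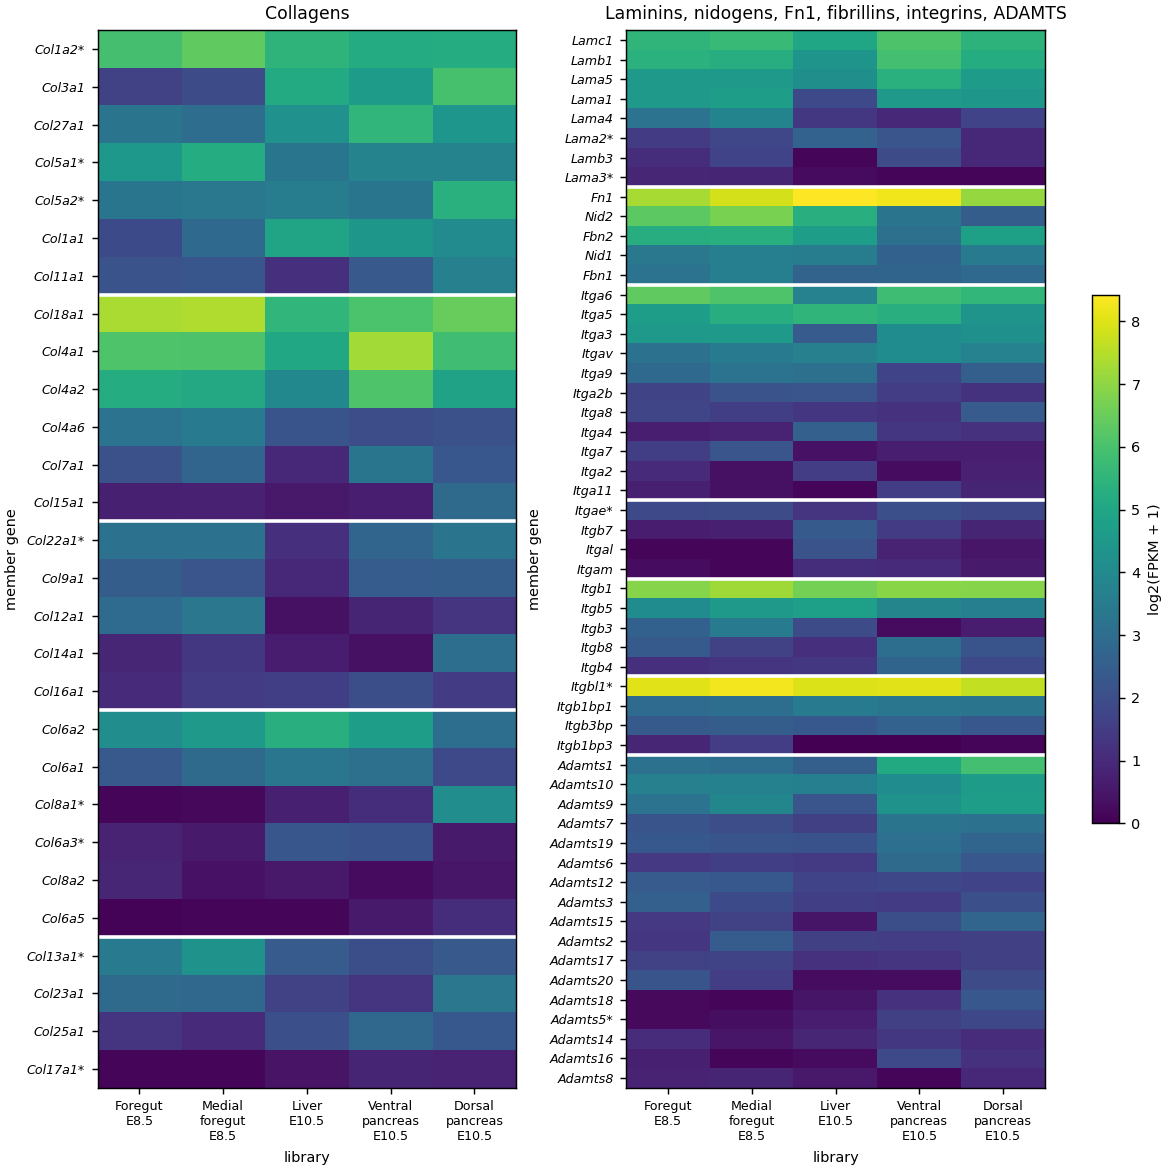
Each row is 1 of 82 member genes and each column 1 library, coloured by log2(FPKM + 1); white lines separate groups of members, rows run from the highest to the lowest mean within a group, and an asterisk marks the 13 partial loci. Fn1, Itgb1 and Col18a1 are bright in every column, Lama1 is dark in liver alone, and Nid2 is dark in the pancreatic columns.

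Laminins are heterotrimers of an alpha, a beta and a gamma chain. The alpha 1, alpha 5, beta 1 and gamma 1 chains were the most abundant of the 9 laminin members, and alpha 1 was low in liver. Lama1 (mm9 chromosome 17, 68046441 to 68172190), the alpha 1 chain of early embryonic basement membranes, stood at 22.5 FPKM in foregut and 25.0 in medial foregut, 2.62 in liver, 22.3 in the ventral and 20.8 in the dorsal pancreas. Liver was thus the only low library, and the other 4 lay close together. The difference was -2.69 against ventral pancreas, -2.59 against dorsal pancreas, -2.70 against foregut and -2.85 against medial foregut. Lama5, the alpha 5 chain, stood at 22.4, 22.5, 17.2, 39.4 and 24.5 FPKM in the same library order. The ratio of Lama5 to Lama1 was 0.993 in foregut, 0.899 in medial foregut, 1.18 in dorsal pancreas, 1.76 in ventral pancreas and 6.57 in liver. Measured against their shared gamma 1 partner Lamc1, Lama5 kept a ratio between 0.443 and 0.599 in all 5 libraries, while Lama1 stood between 0.340 and 0.509 in 4 of them and at 0.0853 in liver.

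The shared beta 1 and gamma 1 chains had their highest level in ventral pancreas and their lowest in liver. Lamb1 stood at 40.5 FPKM in foregut and 36.9 in medial foregut, 19.7 in liver, 58.6 in the ventral and 36.3 in the dorsal pancreas. Lamc1 stood at 44.2, 50.8, 30.7, 65.8 and 42.4 FPKM. Ventral pancreas minus liver was 1.53 for Lamb1 and 1.07 for Lamc1, short of the stricter rule. Over all 9 laminin members the median difference of ventral pancreas minus liver was 1.15, beside a median of 0.17 over all named loci. Of these members 6 were above 0 and 3 below, and the share of all named loci above 0 was not computed.

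Lama4, the alpha 4 chain of vessel walls and muscle, went the other way with stage. It stood at 8.33 FPKM in foregut and 13.1 in medial foregut, 1.58 in liver, 0.909 in the ventral and 2.26 in the dorsal pancreas. Both E8.5 libraries lay above all E10.5 libraries, and ventral pancreas was counted lower than each of them, by -2.29 and -2.88. Cardiomyocyte and smooth muscle marker sums were also far higher at E8.5. The 9 endothelial genes summed to 133, 167, 136, 58.8 and 74.0 FPKM in the same library order. Among them Kdr stood at 21.6, 28.1, 13.6, 1.58 and 9.62 FPKM, but Flt1 was highest in ventral pancreas at 14.3 and Egfl7 in liver at 60.3. The part of muscle and vessel cells in the Lama4 values was not tested.

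Other laminin chains were low. Lamb3, a beta chain of the laminin that anchors epithelia to the underlying matrix, stood at 1.13, 2.24, 0.114, 2.89 and 0.923 FPKM from foregut to dorsal pancreas. Lama3, a partial locus, stood between 0.0880 FPKM in ventral pancreas and 0.875 in foregut, and Lama2, a partial locus of 355 bp, at 1.76, 2.50, 5.33, 3.67 and 0.963. Other genes of epithelial anchorage are given here without a fixed list. Col7a1, which forms anchoring fibrils, stood at 3.22, 5.67, 0.966, 8.68 and 3.94 FPKM. Itgb4, the hemidesmosome partner of integrin alpha 6, stood at 1.27, 1.49, 1.59, 5.57 and 2.66 FPKM. The partial locus Col17a1 stood at 0.812 FPKM in ventral pancreas and at no more than 0.764 elsewhere. Ventral pancreas was the highest library for Lamb3, Col7a1, Itgb4 and Col17a1, but the lowest for Lama3, and Itga6 was highest in foregut. The 7 epithelial marker genes, Epcam and Cdh1 among them, also summed highest in ventral pancreas, at 1284 FPKM against 644 in dorsal pancreas and 379 in liver, and their part in the laminin and anchorage values was not tested.

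**Figure D2:**
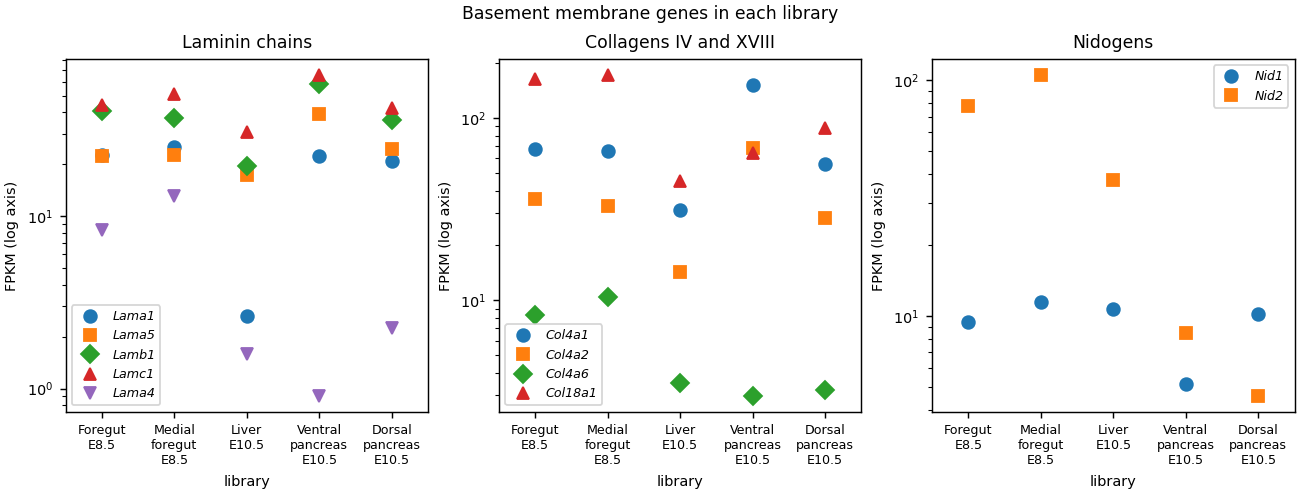
FPKM on a log axis of 5 laminin chains (left), 4 basement membrane collagens (middle) and both nidogens (right) in each of the 5 libraries, 1 point per gene and library and no replicates. Lama1 drops out of the laminin cluster in liver (2.62 FPKM), Col4a1 and Col4a2 peak together in ventral pancreas, and Nid2 spans 4.59 to 105 FPKM while Nid1 spans 5.15 to 11.5.

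Collagen IV is the network collagen of basement membranes, and its main form holds alpha 1 and alpha 2 chains in a 2 to 1 ratio. Col4a1 and Col4a2 lie head to head, and the shared stretch is shown because these members kept 1 order of libraries. In RefSeq on GRCm38.p6 their 5′ ends overlap by 22 bases, which the capitals mark in the plus strand sequence at chr8:11312801-11312830; Col4a2 starts at the left end of the capitals and runs right, Col4a1 starts at the right end and runs left.
Col4a1 and Col4a2 starts: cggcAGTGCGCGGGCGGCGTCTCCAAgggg
Col4a1 stood at 67.4 FPKM in foregut and 65.8 in medial foregut, 31.4 in liver, 152 in the ventral and 56.3 in the dorsal pancreas. Col4a2 stood at 36.0, 32.8, 14.2, 68.2 and 28.1 FPKM. Ventral pancreas was the highest and liver the lowest library for both. Ventral pancreas minus liver was 2.24 for Col4a1 and 2.19 for Col4a2, and ventral minus dorsal pancreas was 1.42 and 1.25. The ratio of Col4a1 to Col4a2 stayed between 1.88 and 2.23 in the 5 libraries. The table gives both genes the same interval (mm9 chromosome 8, 11198426 to 11449355) on opposite strands, and the library protocol marks no strand.

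Col7a1 had the same highest and lowest libraries as this pair, and the other basement membrane collagens did not. Col18a1, the core protein of a heparan sulfate proteoglycan and source of endostatin, stood at 163 FPKM in foregut and 172 in medial foregut, 45.3 in liver, 64.5 in the ventral and 87.7 in the dorsal pancreas. Both E8.5 libraries were above the E10.5 libraries, by between 0.89 and 1.90. Its ratio to Col4a1 was 2.42 and 2.61 at E8.5, 1.45 in liver, 0.424 in the ventral and 1.56 in the dorsal pancreas. Col4a6, a chain of a minor collagen IV form, stood at 8.26, 10.4, 3.53, 2.99 and 3.22 FPKM, again higher in both E8.5 libraries. Col4a3, Col4a4 and Col4a5 are not analysed here.

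Nidogens bridge the laminin and collagen IV networks, and the 2 genes behaved differently. Nid2 (mm9 chromosome 14, 20570150 to 20643071) stood at 77.6 FPKM in foregut and 105 in medial foregut, 37.6 in liver, 8.42 in the ventral and 4.59 in the dorsal pancreas. The order was E8.5, then liver, then the pancreatic libraries, with no overlap between these 3 sets. Ventral pancreas differed by -3.06 and -3.49 and dorsal pancreas by -3.81 and -4.25 from foregut and medial foregut. Liver was above ventral pancreas by 2.03 and above dorsal pancreas by 2.79. Nid1 stood at 9.45, 11.5, 10.7, 5.15 and 10.2 FPKM, so that Nid2 exceeded Nid1 8.21 and 9.15 times at E8.5, 3.53 times in liver and 1.63 times in ventral pancreas, and was at 0.450 of Nid1 in dorsal pancreas. The Nid2 count of liver over ventral pancreas ended when each library was rescaled to the mean total. The cardiomyocyte marker sum followed the same order of E8.5, liver and pancreas. Nkx2-5 of that list did not, at 0.0191 FPKM in liver and 4.77 in dorsal pancreas. The part of cardiomyocytes in the Nid2 values was not tested.

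Fibronectin and the fibrillins form the fibres next to the basement membrane. Fn1 had the highest mean of all members at loci of full length, and stood at 160 FPKM in foregut and 236 in medial foregut, 343 in liver, 300.0 in the ventral and 136 in the dorsal pancreas. Liver and ventral pancreas were the high libraries and dorsal pancreas the lowest, with ventral minus dorsal pancreas at 1.14. Fbn2, the fibrillin of embryonic microfibrils, stood at 37.1, 38.2, 25.4, 7.73 and 26.4 FPKM. Ventral pancreas was the only low library and was counted lower than both E8.5 libraries, by -2.13 and -2.17, while its difference from dorsal pancreas was -1.65. Fbn1 stood at 8.31, 11.6, 5.47, 5.52 and 6.41 FPKM.

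Fibrillar collagens carry the tensile strength of interstitial matrix. Col3a1 was the member with the largest stage difference. It stood at 2.18 FPKM in foregut and 2.78 in medial foregut, 34.3 in liver, 24.0 in the ventral and 62.3 in the dorsal pancreas. All 3 E10.5 libraries were counted higher than both E8.5 libraries, by between 2.73 and 4.32. Col1a1, the alpha 1 chain of collagen I, stood at 2.71, 6.32, 29.4, 20.8 and 15.7 FPKM. The E10.5 libraries were again all above the E8.5 libraries, and liver was counted higher, by 3.04 over foregut and 2.05 over medial foregut. For ventral and dorsal pancreas the difference from medial foregut, 1.57 and 1.19, was short of the stricter rule. The partner chain Col1a2 went the other way at a partial locus with 8.89% of the annotated span, at 60.6, 81.8, 43.8, 35.1 and 36.4 FPKM, so its level cannot be set against Col1a1.

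Col27a1 was highest in ventral pancreas, unlike the other fibrillar genes. It stood at 8.36 FPKM in foregut and 7.10 in medial foregut, 18.3 in liver, 46.0 in the ventral and 20.7 in the dorsal pancreas. Ventral pancreas was counted higher than the E8.5 libraries, by 2.33 and 2.54, and exceeded dorsal pancreas by 1.12. Col11a1, a minor fibril component known from cartilage, stood at 3.43, 3.73, 1.21, 4.06 and 11.6 FPKM, with dorsal pancreas high and liver low. The partial locus Col5a1 stood between 8.75 FPKM in liver and 36.2 in medial foregut.

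A set of collagens was high in dorsal pancreas alone. Col8a1, a short-chain network collagen, stood at 0.116 FPKM in foregut and 0.142 in medial foregut, 0.663 in liver, 1.13 in the ventral and 16.7 in the dorsal pancreas, at a partial locus of 441 bp. Col15a1, which bridges basement membranes and fibrils, stood at 0.676, 0.692, 0.482, 0.648 and 6.54 FPKM at a full-length locus (mm9 chromosome 4, 47220535 to 47326037). These 2 were the members counted higher in dorsal pancreas than in each of the other 4 libraries, 2.41% of members beside 0.267% of all named loci. Col14a1, which coats the surface of fibrils, stood at 0.852, 1.55, 0.610, 0.302 and 7.20 FPKM, and dorsal minus ventral pancreas was 2.65. Col5a2, a partial locus, stood at 8.63, 9.36, 10.53, 8.70 and 39.9 FPKM. This partial locus lies 88.4 kb from the Col3a1 locus on chromosome 1, which is not the distance between the whole genes. Dorsal pancreas was the highest library for both. Col23a1, a transmembrane collagen, stood at 6.55, 6.05, 2.17, 1.40 and 9.10 FPKM, so it was low in liver and ventral pancreas and high in the other 3.

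**Figure D3:**
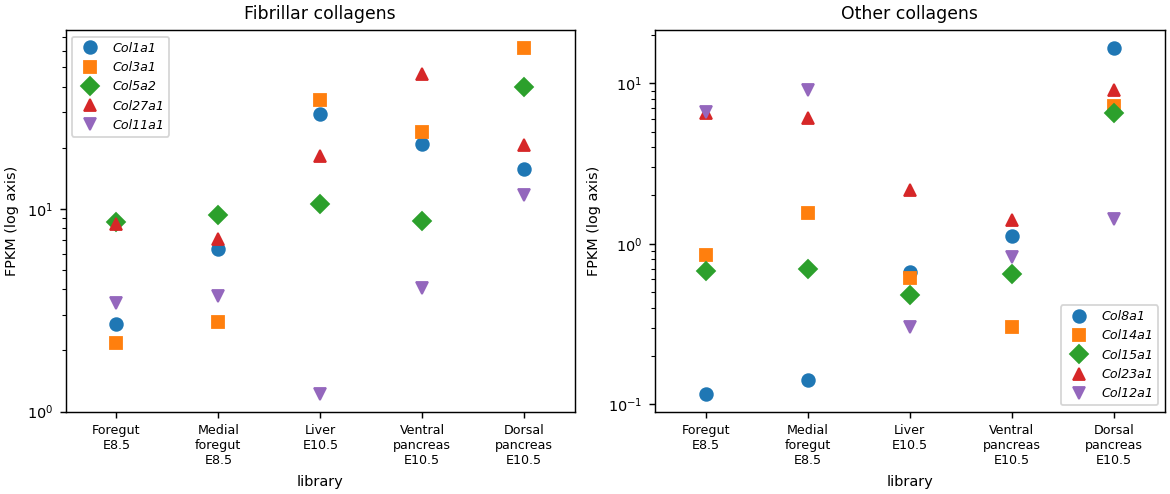
FPKM on a log axis of 5 fibrillar collagen genes (left) and 5 other collagen genes (right) in each library, 1 point per gene and library and no replicates; Col8a1 and Col5a2 are partial loci. Col3a1 and Col1a1 are higher in all 3 E10.5 libraries than at E8.5, while Col8a1, Col14a1 and Col15a1 are highest in dorsal pancreas and Col12a1 is highest at E8.5.

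Some mesenchymal markers were higher in dorsal than in ventral pancreas. Barx1 stood at 89.3 FPKM in dorsal and 0.360 in ventral pancreas, Foxf1a at 18.8 and 1.48, Nkx3-2 at 9.57 and 0.0497 and Pdgfra at 35.0 and 3.48. Pdgfra was not highest in dorsal pancreas, as it stood at 24.2 FPKM in foregut and 41.7 in medial foregut. Prrx1 went the other way, at 0.589 FPKM in dorsal and 2.33 in ventral pancreas. Of the 11 mesenchymal genes 4 were counted lower in ventral than in dorsal pancreas and Postn was counted higher. Of 9 endothelial genes 3 were counted lower in ventral than in dorsal pancreas and Flt1 was counted higher. Their median difference of ventral minus dorsal pancreas was -1.51. Egfl7 was not counted and was higher in ventral pancreas, at 32.2 FPKM against 21.1 in dorsal pancreas. The part of mesenchyme or vessels in the dorsal collagen values was not tested.

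The 250 bases before the RefSeq start are shown for the dorsal-high genes Col8a1 and Col15a1 and for Col3a1 and Adamts1, which were counted higher in dorsal pancreas than at E8.5. All are 5′ to 3′ on the gene's strand in GRCm38.p6, and capitals mark any match on either strand to TATAAA (the core of the TATA box), CCAAT (the CCAAT box) or GGGCGG (the GC box), of which no matches overlapped. The windows are chr16:57754738-57754987 on the minus strand, chr4:47207762-47208011 on the plus strand, chr1:45311288-45311537 on the plus strand and chr16:85803114-85803363 on the minus strand.
Col8a1: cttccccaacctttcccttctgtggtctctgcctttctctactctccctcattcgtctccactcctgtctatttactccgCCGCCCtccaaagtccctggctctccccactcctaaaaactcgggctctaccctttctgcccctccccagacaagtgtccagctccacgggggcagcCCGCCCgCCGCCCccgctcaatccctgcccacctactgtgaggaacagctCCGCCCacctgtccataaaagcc
Col15a1: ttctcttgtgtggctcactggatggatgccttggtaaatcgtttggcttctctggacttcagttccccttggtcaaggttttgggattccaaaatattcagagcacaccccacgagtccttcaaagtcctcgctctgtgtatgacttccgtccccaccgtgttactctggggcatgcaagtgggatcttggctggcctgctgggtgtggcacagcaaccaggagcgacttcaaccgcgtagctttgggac
Col3a1: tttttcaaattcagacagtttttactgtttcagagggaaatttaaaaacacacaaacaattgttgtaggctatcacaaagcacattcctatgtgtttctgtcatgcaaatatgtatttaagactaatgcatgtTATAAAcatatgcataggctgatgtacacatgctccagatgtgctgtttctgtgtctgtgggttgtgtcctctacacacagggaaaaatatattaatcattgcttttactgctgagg
Adamts1: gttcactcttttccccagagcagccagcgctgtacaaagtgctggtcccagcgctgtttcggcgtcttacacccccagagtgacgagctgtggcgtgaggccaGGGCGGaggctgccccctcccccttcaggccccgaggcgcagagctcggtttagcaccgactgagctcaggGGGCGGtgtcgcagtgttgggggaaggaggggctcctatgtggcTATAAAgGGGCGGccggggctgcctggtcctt
Adamts1 held TATAAA with its first base 32 bases before the start, followed by GGGCGG at 25 bases, and Col3a1 held TATAAA at 117 bases. Col8a1 held 4 matches to GGGCGG, all on the other strand, and Col15a1 held none of the motifs. TATAAA was held by 12.4%, the CCAAT box by 33.8% and the GC box by 32.7% of 32851 RefSeq windows of this length. Of the 60 windows of the 55 members found there, 6.7%, 28.3% and 58.3% did. No motif of the 3 was in all 4 windows shown, and a match is a description of the letters only.

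Collagen VI forms beaded filaments around cells, and 3 of its chains had the opposite pattern to the dorsal set. Col6a2 stood at 16.7 FPKM in foregut and 22.1 in medial foregut, 37.9 in liver, 25.0 in the ventral and 7.23 in the dorsal pancreas. Col6a1 stood at 4.16, 6.54, 9.01, 7.71 and 2.63 FPKM, and the partial locus Col6a3 at 0.769, 0.530, 3.83, 3.34 and 0.521. Liver was the highest and dorsal pancreas the lowest library for each of the 3 chains, which assemble into 1 molecule. The loci of Col6a1 and Col6a2 lie 85.2 kb apart on chromosome 10, and that of Col6a2 covers 33.1% of the annotated span. Dorsal minus ventral pancreas was -1.66 for Col6a2 and -1.26 for Col6a1. A further collagen VI chain, Col6a5, was instead highest in dorsal pancreas, at a low level. Its values were 0.0657, 0.0852, 0.0947, 0.533 and 1.13 FPKM from foregut to dorsal pancreas.

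Among fibril-associated collagens Col12a1 marked the E8.5 libraries, at 6.63 FPKM in foregut and 9.08 in medial foregut, 0.303 in liver, 0.828 in the ventral and 1.43 in the dorsal pancreas. Liver and ventral pancreas were counted lower than both E8.5 libraries, by between -2.06 and -2.95. Col22a1, a collagen of tissue junctions and a partial locus holding 29.2% of the annotated length, was low in liver alone, at 8.06, 8.13, 1.18, 5.78 and 8.35 FPKM. Col9a1 had the same shape at 4.58, 3.68, 0.965, 4.53 and 4.63 FPKM. Of the transmembrane collagens, the partial locus Col13a1 stood at 10.3, 19.1, 4.31, 3.07 and 4.09 FPKM and Col25a1 at 1.49, 1.01, 3.15, 6.06 and 3.95. The collagen members Col6a5, Col8a2 and Col16a1 did not exceed 3.03 FPKM in any library.

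The laminin-binding integrin alpha chains were lowest in liver, the library in which Lama1 was low as well. Itga6 stood at 82.1 FPKM in foregut and 67.7 in medial foregut, 12.2 in liver, 54.8 in the ventral and 47.3 in the dorsal pancreas. Itga3 stood at 21.8, 22.3, 4.29, 16.02 and 17.9 FPKM. For both genes liver lay far below all 4 other libraries, and it was counted lower than both E8.5 libraries, by -2.65 and -2.38 for Itga6 and by -2.11 and -2.14 for Itga3. Against ventral and dorsal pancreas the differences were -2.08 and -1.87 for Itga6 and -1.68 and -1.84 for Itga3, short of the stricter rule. Itga7, the laminin receptor of muscle, stood at 1.96, 3.62, 0.330, 0.639 and 0.632 FPKM. The epithelial marker sum was lowest in liver as well, and its part in these values was not tested.

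The fibronectin receptor chain Itga5 took the opposite rank. It stood at 24.9 FPKM in foregut and 37.2 in medial foregut, 44.9 in liver, 38.7 in the ventral and 19.6 in the dorsal pancreas. Liver was thus highest and dorsal pancreas lowest, as for Col6a1, Col6a2, Col6a3 and Fn1. The ratio of Itga6 to Itga5 was 3.30 in foregut and 1.82 in medial foregut, 0.272 in liver, 1.42 in the ventral and 2.41 in the dorsal pancreas, and liver was the only library where Itga5 exceeded Itga6. Itgb1, the common beta chain, varied least of the integrin chains, at 118, 147, 99.7, 120 and 117 FPKM. Itgav stood between 8.12 FPKM in foregut and 16.2 in ventral pancreas, and Itgb5, one of its partners, between 11.5 in dorsal pancreas and 25.9 in liver. Itgb8, another alpha v partner, stood at 4.27, 2.18, 1.19, 7.28 and 3.51 FPKM.

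**Figure D4:**
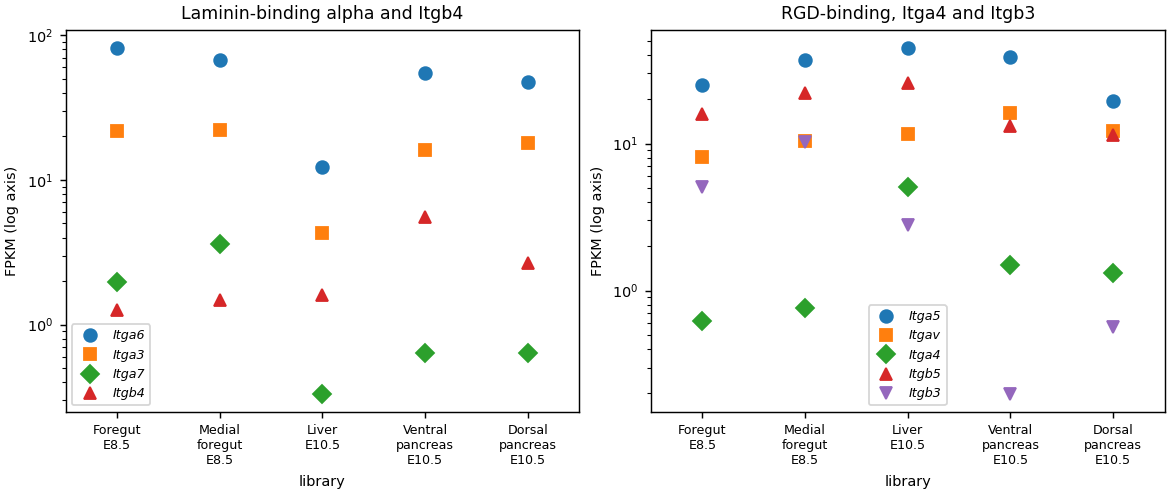
FPKM on a log axis of laminin-binding integrin alpha chains with Itgb4 (left) and of RGD-binding chains with Itga4 and Itgb3 (right) in each library, 1 point per gene and library and no replicates. Itga6 and Itga3 have their lowest values in liver, at 12.2 and 4.29 FPKM, whereas Itga5 and Itga4 are highest there.

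Integrin chains of blood and vessel cells had several patterns. Itgb3, of platelets and endothelium, stood at 5.06 FPKM in foregut and 10.2 in medial foregut, 2.80 in liver, 0.197 in the ventral and 0.568 in the dorsal pancreas. Ventral pancreas was counted lower than both E8.5 libraries, by -2.34 and -3.23. Itga4, a chain of leukocytes and mesoderm, was highest in liver at 5.06 FPKM and stood between 0.624 and 1.49 elsewhere. The leukocyte chains Itgal and Itgb7 stood at 3.45 and 4.18 FPKM in liver and at no more than 0.742 and 1.79 elsewhere, and Itgam did not exceed 1.14 in any library. Liver was also the library with the leukocyte markers, where C1qb stood at 41.3 FPKM and was listed at 0 in both E8.5 libraries. Itgae, a leukocyte chain at a partial locus, went the other way, from 1.49 FPKM in liver to 3.12 in ventral pancreas. All 4 leukocyte chains were lower in dorsal than in ventral pancreas, while the leukocyte marker sum was 6.56 FPKM in dorsal and 3.97 in ventral pancreas. The part of leukocytes in these values was not tested.

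The other alpha chains were low. Itga9 stood at 6.38, 8.21, 7.63, 2.20 and 4.91 FPKM from foregut to dorsal pancreas, and Itga8 was highest in dorsal pancreas at 4.38. Itga2b stood between 1.36 and 3.62 FPKM, and the collagen receptors Itga2 and Itga11 did not exceed 1.89. Of 4 genes named after integrin subunits, Itgb1bp1 and Itgb3bp varied little, from 6.74 to 10.1 and from 3.90 to 5.31 FPKM. Itgb1bp3, which RefSeq now lists under another symbol, stood at no more than 1.88 FPKM and was listed at 0 in ventral pancreas. Itgbl1 was listed at 198 to 308 FPKM at a locus of 222 bp without strand, 0.0703% of the annotated span, and is not read as expression of that gene.

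Of the 17 ADAMTS members, 13 were higher in ventral pancreas than in liver and 16 were higher in dorsal pancreas than in liver, at any size. The shares of all named loci above liver were not computed, so these counts are not read as a trait of the group. The group's median difference from liver was 0.70 for ventral and 0.97 for dorsal pancreas, beside 0.17 and 0.16 over all named loci. Adamts1, which cleaves versican and aggrecan, stood at 7.76 FPKM in foregut and 7.27 in medial foregut, 4.92 in liver, 33.9 in the ventral and 59.6 in the dorsal pancreas. The pancreatic libraries lay above all 3 others, and dorsal pancreas was counted higher than the E8.5 libraries, by 2.79 and 2.87. Liver was counted lower than both, by -2.56 and -3.36. Adamts9, a versican-cleaving relative, stood at 8.28, 13.7, 3.66, 18.4 and 25.1 FPKM, and liver was counted lower than ventral and dorsal pancreas by -2.06 and -2.49, a count that ended under median-ratio rescaling. The ratio of Adamts1 to Adamts9 lay between 0.530 in medial foregut and 2.37 in dorsal pancreas.

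Neighbouring ADAMTS genes had the same highest library. Adamts5, a partial locus of 281 bp, lies 54.3 kb from Adamts1 on chromosome 16 and was highest in dorsal pancreas at 2.54 FPKM, against 0.163 in foregut. Adamts15 and Adamts8 lie 20.7 kb apart on chromosome 9 and were both highest in dorsal pancreas, at 5.75 and 0.921 FPKM. Adamts8 was below 1 FPKM in every library, at 0.755, 0.847, 0.499 and 0.117 FPKM from foregut to ventral pancreas. Its dorsal value was thus close to the E8.5 values. Of 7 pairs of members within 300 kb of each other, Col1a1 and Itga3 were the only pair with different highest libraries. The same was not counted over neighbouring pairs of all named loci, so it is not read as a trait of the members. The pairs include Col4a1 and Col4a2, which are listed at the same interval, and the partial loci Adamts5 and Col5a2. Adamts10 stood between 11.5 FPKM in liver and 15.9 in ventral pancreas, with dorsal pancreas higher at 23.7. Adamts7 stood at 3.52, 3.01, 2.05, 8.52 and 8.08 FPKM and Adamts6 at 1.64, 1.94, 1.70, 6.55 and 3.92, both higher in the pancreatic libraries. Adamts20 was higher in foregut, medial foregut and dorsal pancreas, at 3.52, 1.89 and 2.92 FPKM against 0.222 in liver and 0.215 in ventral pancreas. Adamts18 was highest in dorsal pancreas at 3.89 FPKM, and the procollagen protease gene Adamts2 in medial foregut at 4.52.

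Counted over all 83 members, liver set against both pancreatic libraries had 1 member higher, Nid2, and 3 lower, Lama1, Adamts1 and Adamts9. That is 1.2% and 3.61% of members, beside 1.04% and 1.51% of all named loci. At the looser rule 2 were higher and 7 lower, beside 3.11% and 5.36% of loci, so 8.43% of members were lower. The stricter count was 0 and 0 with a pseudocount of 5 FPKM, and median-ratio rescaling kept Nid2, Lama1 and Adamts1 and lost Adamts9. The median member difference of ventral pancreas minus liver was 0.27 and of dorsal pancreas minus liver 0.37, beside 0.17 and 0.16 over all named loci. The plot of each pancreatic library minus liver shows Lama1, Itga6, Adamts1 and Adamts9 on the pancreatic side and Nid2 on the liver side.

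**Figure D5:**
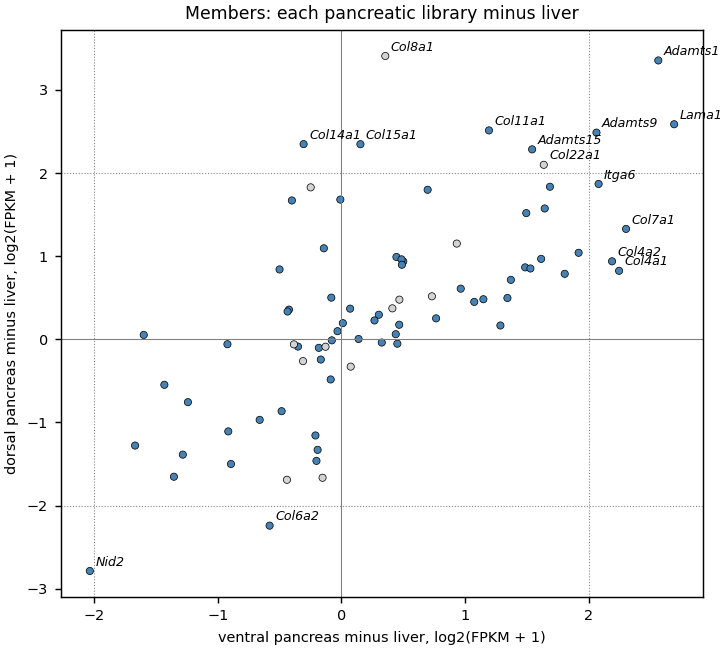
Each point is 1 of 82 members; the horizontal axis is ventral pancreas minus liver and the vertical axis dorsal pancreas minus liver, both as differences of log2(FPKM + 1), with dotted lines at 2 and -2 and partial loci in grey. Adamts1, Adamts9 and Lama1, all counted, lie beyond 2 on both axes and Nid2 beyond -2 on both; the axes share the liver library, so the diagonal trend is partly built in.

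Ventral set against dorsal pancreas had 0 members higher and 5 lower, Col5a2, Col8a1, Col14a1, Col15a1 and Col23a1, beside 0.913% and 0.768% of all named loci. All 5, or 6.02% of members, are collagens, and Col5a2 and Col8a1 are partial loci, without which the count was 3; with a pseudocount of 5 FPKM it was 0. At the looser rule 6 were higher, Col4a1, Col4a2, Col6a1, Col6a2, Col27a1 and Fn1, and 8 were lower, beside 3.28% and 2.47% of loci. The looser count thus put collagen IV and collagen VI chains with Fn1 on the ventral side, and Col3a1, Col11a1 and Fbn2 joined the 5 genes on the dorsal side.

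Set against both E8.5 libraries, liver had 2 members higher, Col1a1 and Col3a1, and 5 lower, Col12a1, Col22a1, Itga3, Itga6 and Lama1, beside 2.29% and 2.12% of all named loci. At the looser rule 4 were higher and 14 lower, or 4.82% and 16.9% of members, beside 5.24% and 6.08% of loci. Those 14 included Col4a1, Col4a2, Col4a6, Col18a1, Lama1, Lama4 and Nid2, all basement membrane genes. The rest were Col5a1, Col12a1, Col13a1, Col22a1, Col23a1, Itga3 and Itga6. All 6 basement membrane collagen members and 8 of 9 laminin members were lower in liver than in each E8.5 library at any size. The share of all named loci lower in liver was not computed, so these counts are not read as a trait. Over all named loci the median of liver minus medial foregut was -0.079 and of liver minus foregut -0.093.

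Ventral pancreas had 2 members higher than both E8.5 libraries, Col3a1 and Col27a1, and 5 lower, Col12a1, Fbn2, Itgb3, Lama4 and Nid2, beside 1.96% and 1.49% of loci. At the looser rule 10 were higher and 10 lower, beside 6.38% and 3.31% of loci. Dorsal pancreas had 4 higher, Adamts1, Col3a1, Col8a1 and Col15a1, and 1 lower, Nid2, beside 1.45% and 1.18%. At the looser rule 11 were higher and 7 lower, beside 4.36% and 2.8%. With a pseudocount of 5 FPKM the stricter counts were 1 higher and 1 lower for liver and 0 higher and 1 lower for ventral pancreas. The 3 comparisons with E8.5 share their reference libraries, so recurrence of Col3a1, Nid2 and Col12a1 among them is not independent. The cardiomyocyte and smooth muscle sums were also lower in each E10.5 library, and their part in the lower counts was not tested.

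Genes that act with the members were read from 5 lists. Of 23 focal adhesion and laminin receptor genes listed, 18 were found and 0 were counted in any of the 6 comparisons, beside the 8.02% of all named loci counted in at least 1. The adaptor gene Ilk stood between 25.5 and 39.5 FPKM. Fermt1, an epithelial integrin activator, was low in liver at 0.963 FPKM, against 6.69 in ventral and 8.70 in dorsal pancreas, and Ddr1, a collagen receptor gene, was at 8.93 in liver and at least 28.1 elsewhere. Of 25 collagen folding and crosslinking genes 18 were found. Pcolce2, an enhancer of procollagen processing, stood at 1.60 FPKM in foregut and 1.41 in medial foregut, 46.6 in liver, 21.7 in the ventral and 2.48 in the dorsal pancreas, and was counted higher in liver and ventral pancreas than at E8.5. Leprel1, a collagen prolyl 3-hydroxylase gene, stood at 22.0, 28.7, 1.99, 1.08 and 4.13 FPKM and was counted lower in all 3 E10.5 libraries. The other 16, among them the collagen chaperone gene Serpinh1 at 195 to 611 FPKM, were not counted.

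Of 30 matricellular and elastic fibre genes 27 were found and 13 were counted in at least 1 comparison, which 8.02% of all named loci were. Spp1, encoding osteopontin, stood at 0.732 FPKM in foregut and 0.484 in medial foregut, 0.0101 in liver, 38.0 in the ventral and 68.2 in the dorsal pancreas. Thbs4, a thrombospondin of muscle and tendon, stood at 67.3, 113, 2.68, 1.07 and 1.31 FPKM and was lower in each E10.5 library. Tnc, encoding tenascin C, was high in dorsal pancreas like the collagens above, at 79.7 FPKM against 1.73 in ventral pancreas and at most 5.42 elsewhere besides. Frem2, a basement membrane protein of epithelia, stood at 7.54, 8.35, 4.38, 55.1 and 23.8 FPKM, so it had the ventral-high, liver-low order of Lamc1 and Col4a1. Vtn, encoding vitronectin, a ligand of alpha v integrins, stood at 18.5, 9.53, 351, 227 and 108 FPKM and was counted higher in all 3 E10.5 libraries. Postn, encoding periostin, was highest in ventral pancreas at 12.5 FPKM.

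Of 23 proteoglycan genes 14 were found. Nepn, encoding nephrocan, stood at 3.08 FPKM in foregut and 0.387 in medial foregut, 0.512 in liver, 254 in the ventral and 602 in the dorsal pancreas. Vcan, encoding the ADAMTS substrate versican, stood at 84.7, 116, 9.78, 31.4 and 24.8 FPKM and was counted lower in liver than at E8.5. Hspg2, encoding perlecan, stood between 34.3 and 55.2 FPKM and was not counted. The third gene counted on this list was Spock1, a partial locus. Of 25 matrix protease and inhibitor genes 16 were found, and Adam12, a partial locus with 1.42% of the annotated span, was the only gene counted, lower in ventral than in dorsal pancreas at 5.34 and 27.3 FPKM.

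RefSeq holds 109 protein-coding genes with names that meet the rule, of which 82 had a locus of their own here. A further 6 loci carry a family name joined to other genes, such as Lamb2 with Usp19 at 48.4 to 66.7 FPKM, and their reads cannot be assigned to 1 gene.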

How the data were processed

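The authors deposited 1 table of FPKM values, per the file headers, with 5 columns, matched to tissues through the sample descriptions. Build mm9, TopHat 1.33 and Cufflinks 1.3.0 are listed, without roles, per the submitters' processing notes; how libraries were scaled to one another is not stated in the sources used here. Of 14053 loci 1678 had no name and were left out. Depth in reads is unknown: among 517 loci below 0.3 FPKM in both E8.5 libraries the most common ratio was shared by 8, so read counts could not be recovered and values carry no counting interval. Coordinates are the table's (mm9); the highest end on chromosome 7 is 152470065 there and 145324059 in the GRCm38 gene table, so GENCODE M21 and RefSeq (GRCm38.p6) served for names, strand, span and promoter letters only. By name 82 of 83 members matched GENCODE, and 55 had a RefSeq promoter window.

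Differences, counts and medians were computed with Python 3.11.15, numpy 2.4.6 and pandas 2.3.3, and figures drawn with matplotlib 3.10.9; the counting rule was checked on simulated data. The 6 comparisons, the groups of members, the 5 lists, 14 marker lists and the alternatives were chosen with earlier results of these data known. Named are all counted members, the 3 of highest mean in each group, laminins, the measured collagen IV chains, Itgb1, Fn1, nidogens and fibrillins, and up to 6 counted genes of each list; other members are named with values seen. The values of 1 member are not reported here and not drawn; it stays in the counts and medians.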

Additional observations from a re-analysis of the deposited data

How the results depend on the processing

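No paired analysis was possible because each group has 1 library. With 1 library per group no count could be set against replicate spread, and depth limits what the low members show. Of 100 recomputed counts of members, 69 stayed within 1.5 times the value reported and 31 did not. The 69 include all those of foregut against medial foregut, which were 0 at every setting and say little about stability. The cause of the changes was not tested except where the rule itself is wider or narrower. Counts are given as higher and lower. A pseudocount of 5 FPKM, which shrinks differences of low genes, gave 0 and 0 for liver against pancreas, 0 lower for ventral against dorsal pancreas, 1 and 1 for liver against E8.5 and 0 and 1 for ventral pancreas against E8.5. A size of 1 gave 2 and 7 for liver against pancreas and 6 and 8 for ventral against dorsal pancreas; against E8.5 it gave 4 and 14 in liver, 10 and 10 in ventral pancreas and 11 and 7 in dorsal pancreas. Rescaling each library to a total of 1000000, which also makes the pseudocount and the 5 FPKM limit 2.73 to 3.04 times smaller against the values, gave 0 and 7 for liver against pancreas, 1 higher for ventral against dorsal pancreas, 5 higher for liver and 5 higher for ventral pancreas against E8.5, and in dorsal pancreas 8 and 2. Rescaling to the mean total, chosen after seeing the data, changes the scaling alone and gave 0 higher for liver against pancreas; the other 11 counts stayed within 1.5 times. Leaving out partial loci gave 3 lower for ventral against dorsal pancreas. Against a lone reference library, chosen after seeing the data, liver had 8 lower than ventral pancreas, and 2 higher and 9 lower than dorsal pancreas; dorsal pancreas had 7 higher than foregut and 4 lower than medial foregut. The median over all named loci of dorsal pancreas minus liver was 0.16 as deposited, 0.29 after rescaling to the mean total and 0.05 after median-ratio rescaling. The median member difference of dorsal pancreas minus foregut was -0.019 and turned to 0.0079 after rescaling to 1000000, 0.0078 after rescaling to the mean total and 0.013 without partial loci; that of dorsal pancreas minus medial foregut was 0.039 and turned to -0.018 after median-ratio rescaling.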
